A study of Mus musculus with 4 samples.

Results

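The contractile apparatus of smooth muscle and its regulators were examined as a set of 34 genes, chosen by symbol with earlier results of these data known. All were found in the 55357 features of the deposited matrices, each by 1 identifier. They comprise 9 genes of the thin filament, 3 of the thick filament, 5 of the light chain kinase, the phosphatase and their regulators, 9 of attachment and cytoskeletal linkage, 5 transcriptional regulators and 3 genes of membrane, calcium and receptor function. Their unique molecular identifiers (UMIs, 1 per captured RNA molecule) were summed per library over smooth muscle cells found by marker gates. The cells came from the whole ascending aorta of male wild-type (WT) mice, profiled by droplet single-cell RNA sequencing of transcript 3′ ends.

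AD_ABR mice (2 libraries) received β-aminopropionitrile (BAPN), which inhibits the lysyl oxidases that cross-link elastin and collagen, given with the water they drank (1 g/kg daily) over 4 weeks from the age of 3 weeks, and paquinimod, a ligand of S100A9, by gavage (10 mg/kg daily). AD mice (2 libraries) received the same BAPN course, which produces aortic dissection, without paquinimod. BAPN was thus shared by both groups, and mice without BAPN were not analysed here. The labels do not say whether the replicates came from separate animals or pools, so p-values measure only the spread between these libraries.

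A smooth muscle cell shortens when myosin of the thick filament, its regulatory light chain phosphorylated by the calmodulin-dependent kinase encoded by Mylk, pulls on thin filaments of α-actin and tropomyosin. Myosin phosphatase reverses this step, and adhesion plaques and dense bodies carry the force to the elastic lamellae. Transcription of many of these genes depends on serum response factor (SRF) and its coactivator myocardin, which act at the CArG box, and in the aortic media the programme is known to weaken when the cells leave the contractile state.

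The CArG box was searched on both strands in RefSeq promoter windows (250 bases before to 50 after a gene's start, GRCm38.p6), which were matched for 28 of the 34 genes in 36 windows. It was present in windows of Myl9, Myl6, Vcl and Srf, 4 of 36 windows (11.1%), against 535 of 32851 windows of all genes (1.63%). The promoter sequences below show where the motif lies in a light chain gene, in the vinculin gene, in Srf itself and in Acta2, the smooth muscle actin gene. The Myl9 window is chr2:156775214-156775513 on the plus strand, that of Vcl is chr14:20929148-20929447 on the plus strand, that of Srf is chr17:46556113-46556412 on the minus strand, and that of Acta2 is chr19:34255324-34255623 on the minus strand. Capitals mark the strict CArG box (CC, a run of A or T, GG) in the Myl9, Vcl and Srf windows. In Acta2 they mark the 2 stretches that lie 1 base off it, a looser match that 19.9% of all promoter windows also hold. Binding of SRF was not examined, and a window without the strict box may still bind it.
Myl9 promoter: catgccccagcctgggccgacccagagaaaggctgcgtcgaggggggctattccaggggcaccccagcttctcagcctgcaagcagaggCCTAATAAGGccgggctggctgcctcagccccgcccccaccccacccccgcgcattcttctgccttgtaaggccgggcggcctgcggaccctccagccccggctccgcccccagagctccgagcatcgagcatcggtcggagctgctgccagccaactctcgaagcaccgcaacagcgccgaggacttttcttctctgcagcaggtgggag
Vcl promoter: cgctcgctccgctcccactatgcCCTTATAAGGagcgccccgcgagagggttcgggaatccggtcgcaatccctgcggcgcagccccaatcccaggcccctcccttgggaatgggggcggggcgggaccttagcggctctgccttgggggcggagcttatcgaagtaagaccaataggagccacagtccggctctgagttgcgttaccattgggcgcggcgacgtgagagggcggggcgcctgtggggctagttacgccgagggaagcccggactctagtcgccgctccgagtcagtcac
Srf promoter: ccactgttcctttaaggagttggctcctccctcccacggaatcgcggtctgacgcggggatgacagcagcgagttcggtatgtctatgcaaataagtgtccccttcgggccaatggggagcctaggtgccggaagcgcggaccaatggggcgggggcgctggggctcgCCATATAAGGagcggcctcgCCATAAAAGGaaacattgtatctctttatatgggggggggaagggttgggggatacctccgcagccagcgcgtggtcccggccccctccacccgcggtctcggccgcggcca
Acta2 promoter: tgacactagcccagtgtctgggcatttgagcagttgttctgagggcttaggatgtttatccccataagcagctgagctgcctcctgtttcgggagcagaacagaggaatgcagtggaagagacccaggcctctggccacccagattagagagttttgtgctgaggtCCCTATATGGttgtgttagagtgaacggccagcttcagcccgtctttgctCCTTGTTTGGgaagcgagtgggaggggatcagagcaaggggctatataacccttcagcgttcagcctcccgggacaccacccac
The box of Myl9 begins at -161 from the RefSeq start, that of Vcl at -227 and those of Srf at -82 and -62, and the looser matches of Acta2 begin at -84 and -34. Besides Acta2, the windows of Csrp1, Myoz2, Ramp1, Pln, Mrtfa, Des and Smtn, genes called in a gate or cluster below, held no strict CArG box. Windows of Tagln, Actg2, Myh11, Lims2, Myocd and Foxs1 were not analysed here. A match is a description of these letters, and none of the genes with a box, Myl9, Myl6, Vcl or Srf, passed the test between groups in any of the gates below.

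Cells entered the smooth muscle gate when Acta2 and Tagln together took at least 0.6% of their UMIs and they held fewer than 3 UMIs of 9 genes of other lineages. The AD_ABR libraries gave 3793 and 2987 such cells, 44.9 and 30.3% of kept cells, and the AD libraries 993 and 2214, 10.8 and 22.6%. Summed, these cells held 40513580 and 28690052 UMIs in AD_ABR and 8734957 and 18047260 in AD. In a clustering made without the 34 genes, 95.3 and 93.1% of the cells of the 2 largest smooth muscle clusters passed the gate. Gated cells with at least 3 UMIs of Tnnt2 and Corin per 10000 form the Tnnt2/Corin subtype, remaining cells with more Eln than Acta2 and Tagln UMIs the elastin-dominant subtype, and the rest the contractile subtype. The contractile subtype made up 86.0 and 86.5% of gated cells in AD_ABR and 68.1 and 74.4% in AD. The Tnnt2/Corin subtype made up 8.04 and 7.13% in AD_ABR and 18.4 and 11.7% in AD, and the elastin-dominant subtype 5.96 and 6.36% in AD_ABR and 13.5 and 13.9% in AD. Acta2, Tagln, Eln, Tnnt2 and Corin choose the cells, so their own levels are not independent of the gates.

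Markers of other cells and signs of RNA quality moved with the groups in the gated cells. Rn18s-rs5, related to ribosomal RNA, stood at 20550.5 and 16128 CPM (counts per 1000000 UMIs) in AD_ABR and 61096 and 40619 CPM in AD. The 6 fibroblast markers summed to 1403 and 1543 CPM in AD_ABR and 2234 and 2415 CPM in AD, and 5 of them fell and 1 rose. The 4 chondrocyte markers summed to 92.4 and 92.8 CPM in AD_ABR and 147 and 158 CPM in AD, and the 5 neutrophil markers to 0.691 and 0.523 CPM in AD_ABR and 41.8 and 3.44 CPM in AD. Of 9 dissociation stress genes 6 fell and 0 rose, against 9.16% of all tested genes that fell. The sums of the macrophage markers (25.3 and 32.7 CPM in AD_ABR, 31.5 and 25.8 CPM in AD) and of the endothelial markers (22.3 and 21.6 CPM in AD_ABR, 19.0 and 25.5 CPM in AD) overlapped between groups. The part of these shifts in the results below was not tested.

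In all gated smooth muscle cells, 8 of the 34 genes rose and 1 fell in AD_ABR (edgeR quasi-likelihood test, adjusted p below 0.05 over 15253 genes). This compares with 16.0% of all tested genes called in either direction, 6.79% higher and 9.16% lower. Since the genes were chosen with earlier results of these data known, their counts here and below are a description. The genes that rose were Acta2 and Tagln of the thin filament, the linkers Csrp1, Lims2 and Myoz2, the transcriptional regulators Myocd and Foxs1, and the receptor subunit Ramp1. The gene that fell was Pln. Acta2 and Tagln set the gate; of the 32 genes without them 6 rose and 1 fell, with a median log2 fold change of 0.15. The median log2 fold change was 0.18 over the 34 genes and -0.02 over all tested genes. Groups did not overlap for 25 of the 34 genes, and for 61.8% of all tested genes. CPM are unscaled levels of the summed counts, whereas fold changes carry edgeR's TMM scaling, which moved them by a median of 0.09 on the log2 scale, so that 6 of the 34 genes with small differences (Cald1, Lmod1, Ppp1r12a, Ppp1r12b, Flna and Mrtfb) have another sign in CPM.

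**Figure D1:**
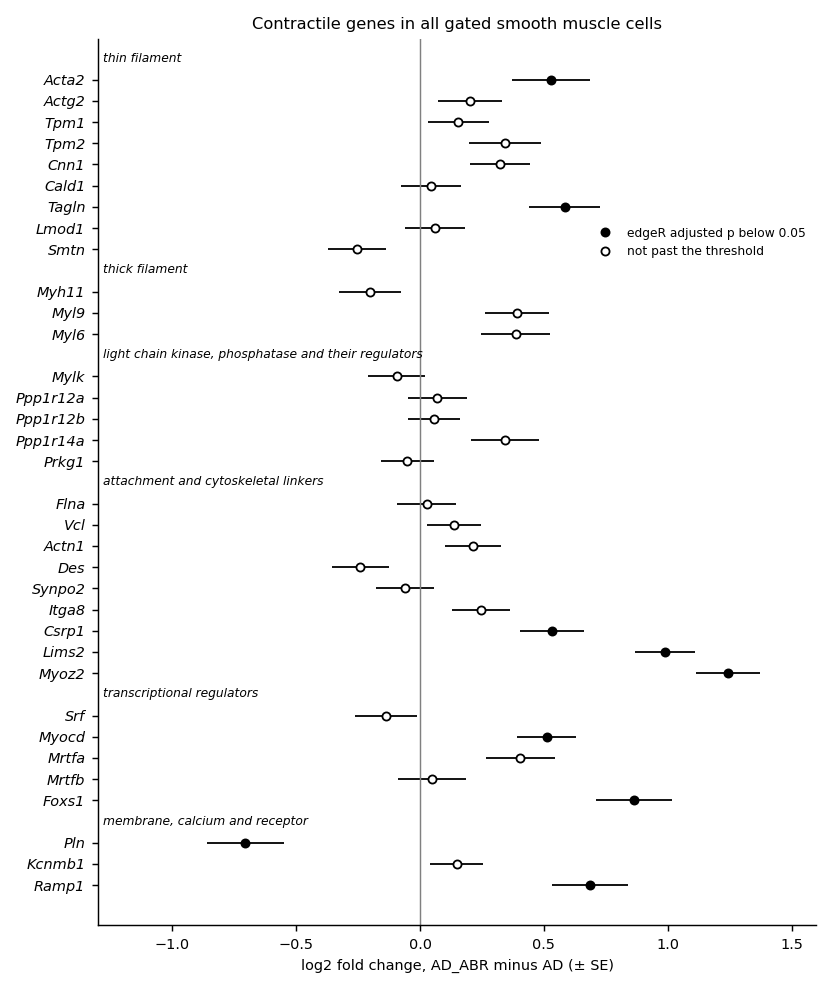
Log2 fold change of each of the 34 genes, AD_ABR minus AD, in all gated smooth muscle cells (x axis; bars, SE from edgeR), with genes grouped by role down the page. Filled points passed the edgeR test over all genes: 8 lie to the right of 0 and Pln, at -0.71, to the left.

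Of the 9 thin filament genes, the gate genes Acta2 and Tagln rose and the other 7 did not pass. Acta2, the α-actin of smooth muscle, stood at 21647 and 24493 CPM in AD_ABR and 15328 and 18568 CPM in AD. Tagln, which encodes the actin-binding protein transgelin, stood at 14350.2 and 15680.4 CPM in AD_ABR and 10078 and 11163 CPM in AD. Both AD_ABR libraries were above both AD libraries for either gene, and since these genes set the gate, the rise is a description of how far past it the cells lay. The log2 fold change was 0.53 ± 0.16 (SE) for Acta2 (edgeR adjusted p = 0.0352) and 0.58 ± 0.14 for Tagln (edgeR adjusted p = 0.0139). The Acta2 call was lost in 9 of 18 alternatives, among them without AD replicate 1, AD_ABR replicate 1 or AD_ABR replicate 2. It was also lost in the smooth muscle clusters made without the 34 genes (edgeR adjusted p = 0.0852). The Tagln call was lost without AD_ABR replicate 2 and in 1 of the 2 largest smooth muscle clusters taken alone (edgeR adjusted p = 0.0531).

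Cnn1, which encodes the actin-binding protein calponin, stood at 1694 and 1649 CPM in AD_ABR and 1352 and 1479 CPM in AD. The libraries did not overlap, but the log2 fold change of 0.32 ± 0.12 did not pass (edgeR adjusted p = 0.0835). Tpm2, a tropomyosin, was at 5173 and 5625 CPM in AD_ABR and 4042 and 4963 CPM in AD (log2 fold change 0.34 ± 0.15). Actg2, Tpm1, Cald1 and Lmod1, which encode γ-actin of smooth muscle, another tropomyosin, caldesmon and the actin nucleator leiomodin, had log2 fold changes of 0.04 to 0.20. Smtn, which encodes smoothelin of contractile cells, was the one thin filament gene with a negative fold change, at 402 and 379 CPM in AD_ABR and 545 and 446 CPM in AD (-0.25 ± 0.12, edgeR adjusted p = 0.142).

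The 3 thick filament genes did not pass, and the myosin heavy chain differed from the light chains in direction. Myh11, the smooth muscle myosin heavy chain, stood at 3473 and 3148 CPM in AD_ABR and 4109 and 3970.2 CPM in AD. Both AD_ABR libraries were below both AD libraries (log2 fold change -0.20 ± 0.12, edgeR adjusted p = 0.282). Myl9, the regulatory light chain, was at 3794 and 4122 CPM in AD_ABR and 3154 and 3252 CPM in AD (0.39 ± 0.13, edgeR adjusted p = 0.0504). Myl6, the essential light chain, was at 7163 and 7608 CPM in AD_ABR and 5545 and 6436 CPM in AD (0.39 ± 0.14, edgeR adjusted p = 0.0747).

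Ratios of UMIs within a library carry no scaling between libraries, but those to Acta2 are a description, since Acta2 set the gate and was itself higher in AD_ABR. Per 1000 Acta2 UMIs the gated cells held 160.4 and 129 Myh11 UMIs in AD_ABR and 268 and 214 in AD, or 144 ± 22.6 and 241 ± 38.4 (SD, n = 2 libraries each). Smtn gave 18.6 and 15.5 UMIs per 1000 Acta2 UMIs in AD_ABR and 35.5 and 24.0 in AD. Ratios to Acta2 were lower in AD_ABR for other genes too: Tpm2 gave 239 and 229.7 in AD_ABR and 264 and 267 in AD, Myl6 331 and 311 in AD_ABR and 362 and 347 in AD, and Cnn1 78.2 and 67.3 in AD_ABR and 88.2 and 79.7 in AD. Myl9 gave 175.3 and 168 in AD_ABR and 206 and 175.1 in AD, ranges that overlapped.

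None of the 5 genes of the kinase, the phosphatase and their regulators passed the edgeR test. Mylk, the light chain kinase, stood at 952 and 922 CPM in AD_ABR and 1137 and 989 CPM in AD (log2 fold change -0.09 ± 0.12). Ppp1r14a, an inhibitor of myosin phosphatase, stood at 927 and 922 CPM in AD_ABR and 675 and 866 CPM in AD (0.34 ± 0.14, edgeR adjusted p = 0.102). Ppp1r12a and Ppp1r12b, the subunits that bring the phosphatase to myosin, and Prkg1, the cGMP-dependent kinase of relaxation, had log2 fold changes of 0.07, 0.06 and -0.05.

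Among the 9 linkers, Csrp1, Lims2 and Myoz2 rose and the other 6 did not pass. Lims2, an adaptor of the integrin-linked kinase complex at adhesion plaques, stood at 235 and 262 CPM in AD_ABR and 124 and 140.1 CPM in AD, a 1.99-fold difference (log2 fold change 0.99 ± 0.12, edgeR adjusted p = 0.000176). Myoz2, whose product binds α-actinin and calcineurin at the Z-disc of striated muscle, stood at 105 and 97.6 CPM in AD_ABR and 39.7 and 50.2 CPM in AD, the largest fold among the 34 genes at 2.36 (1.24 ± 0.13, edgeR adjusted p = 5.75e-05). Both genes were separated between the groups by more than the spread within them, and both passed in each of 18 alternatives, with log2 fold changes of 0.76 to 1.13 for Lims2 and 0.91 to 1.48 for Myoz2.

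Csrp1, a LIM-domain protein of the actin cytoskeleton, stood at 1387 and 1487 CPM in AD_ABR and 972 and 1132 CPM in AD (log2 fold change 0.53 ± 0.13, edgeR adjusted p = 0.0129). Its call was lost without AD_ABR replicate 2 (adjusted p = 0.129) and in 1 of the 2 largest smooth muscle clusters taken alone (0.106). Itga8, the α8 integrin chain, was at 1569.8 and 1551 CPM in AD_ABR and 1407 and 1384 CPM in AD without passing (0.25 ± 0.12, edgeR adjusted p = 0.157). Flna, Vcl, Actn1 and Synpo2, which encode filamin A, vinculin, α-actinin and an actin-binding protein of dense bodies, had log2 fold changes of -0.06 to 0.21, and the intermediate filament gene Des one of -0.24 ± 0.12.

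Among the 5 transcriptional regulators, Myocd and Foxs1 rose. Myocd, the coactivator myocardin, stood at 261 and 210.0 CPM in AD_ABR and 186 and 165 CPM in AD (log2 fold change 0.51 ± 0.12, edgeR adjusted p = 0.0105). The lowest AD_ABR library was above the highest AD library, and the call was lost without AD_ABR replicate 1 (adjusted p = 0.146). Foxs1, a forkhead factor of vascular mural cells, stood at 45.8 and 40.3 CPM in AD_ABR and 20.4 and 28.6 CPM in AD (0.86 ± 0.15, edgeR adjusted p = 0.00361), and passed in each of 18 alternatives. In the Tnnt2/Corin subtype Foxs1 did not pass (edgeR adjusted p = 0.164). In the elastin-dominant subtype it stood at 48.5 and 28.3 CPM in AD_ABR and 20.4 and 47.5 CPM in AD, ranges that overlapped. Gated cells held 51.1 and 46.2% of the Foxs1 UMIs of kept cells in AD_ABR and 15.3 and 20.8% in AD. Srf, the partner of myocardin, stood at 18.1 and 15.7 CPM in AD_ABR and 20.4 and 19.2 CPM in AD without passing (-0.14 ± 0.13). Mrtfa, an actin-sensing coactivator of SRF, was at 13.1 and 12.3 CPM in AD_ABR and 10.5 and 9.86 CPM in AD (0.40 ± 0.14, edgeR adjusted p = 0.0609). Mrtfb, its relative, had a log2 fold change of 0.05.

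Of the last 3 genes, Ramp1 rose and Pln fell. Ramp1, the subunit that makes the calcitonin receptor-like protein a receptor for the dilator CGRP, stood at 603 and 723 CPM in AD_ABR and 381 and 491 CPM in AD (log2 fold change 0.69 ± 0.15, edgeR adjusted p = 0.0116). Pln, which encodes phospholamban, the inhibitor of the calcium pump of the sarcoplasmic reticulum, stood at 16.2 and 14.9 CPM in AD_ABR and 33.1 and 21.998 CPM in AD (-0.71 ± 0.15, edgeR adjusted p = 0.00926). Neither gene's groups overlapped. Kcnmb1, the β1 subunit of the BK potassium channel, was at 190.2 and 192 CPM in AD_ABR and 184 and 183 CPM in AD (0.15 ± 0.11).

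**Figure D2:**
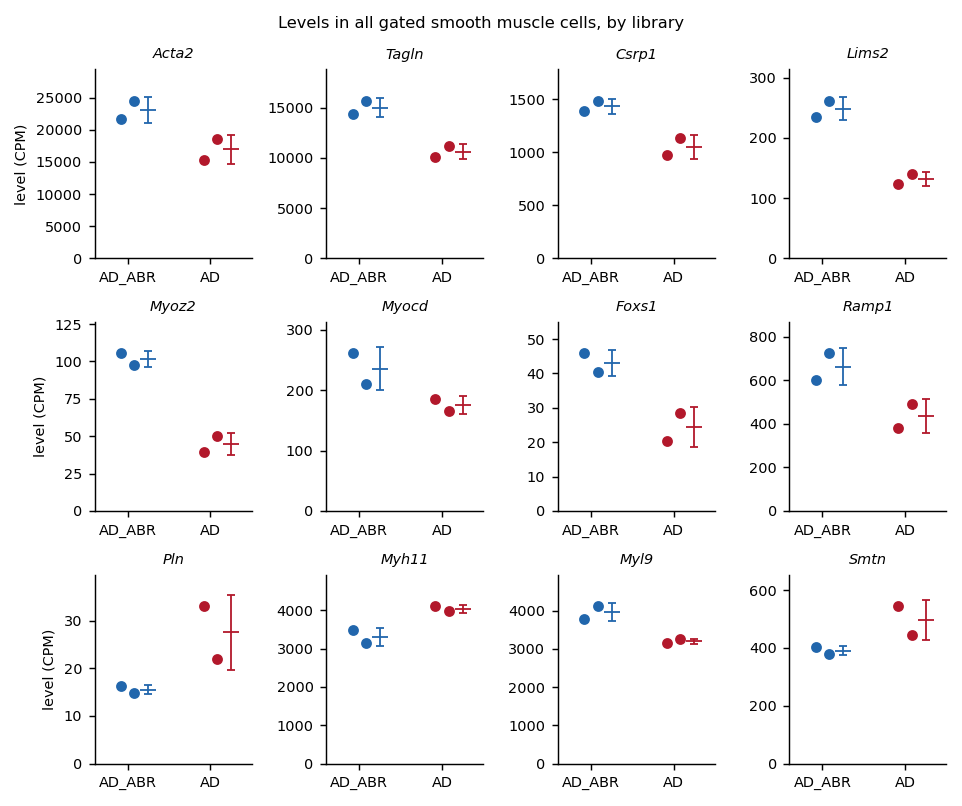
Levels of 12 genes in all gated smooth muscle cells (y axis, CPM of summed UMIs, from 0), with 1 point per library, AD_ABR left and AD right, and the mean ± SD of 2 libraries beside the points. Lims2 and Myoz2 are separated between the groups, while Myh11 and Smtn lie lower in AD_ABR without passing the test.

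Free RNA from broken cells was gauged in T- and B-like cells, which are not contractile. Some of the 34 genes may be made by these cells themselves: Myl6 was detected in 76.5 to 92.7% of T-like cells thinned to 3000 UMIs. Own expression and free RNA were not told apart, so a high level, as for Ramp1, Mrtfa or Srf, need not be free RNA. Their level was below 10% of the gated smooth muscle level in every library for 20 of the 34 genes, and below 2% for Myoz2 alone. Among the genes that changed, it was at most 2.94% for Myocd, 4.02% for Pln, 5.85% for Lims2, 7.96% for Tagln, 13.1% for Csrp1, 22.5% for Foxs1 and 35.8% for Ramp1. The Pln value rested on 1 UMI, that of Foxs1 on 3 UMIs and that of Lims2 on 4 UMIs. The values of Lims2, Tagln, Csrp1, Foxs1 and Ramp1 came from AD_ABR replicate 1. In the other libraries Tagln stood at 1.19 to 2.01%. Mrtfa stood at 78.5 to 161% of the smooth muscle level in lymphocytes and Srf at 48.6 to 94.8%, levels close to those of the gated cells.

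Lims2 and Myoz2 were also higher in AD_ABR as a share of cells with a UMI. Each contractile-subtype cell was thinned to 3000 UMIs, and shallower cells were left out (142 and 133 in AD_ABR, 21 and 114 in AD). Lims2 was then detected in 49.2 and 52.3% of cells in AD_ABR and 31.0 and 36.2% in AD, and in 86.8 and 85.2% against 63.4 and 66.1% without thinning. Myoz2 was detected in 22.5 and 20.7% of thinned cells in AD_ABR and 13.0 and 12.3% in AD, and in 48.6 and 44.8% against 25.6 and 26.5% without thinning. In T-like cells thinned alike, with 41 and 67 cells left in AD_ABR and 81 and 89 in AD, the Lims2 share was 4.88 and 0.0% in AD_ABR and 0.0 and 0.0% in AD, and the Myoz2 share 0.0 and 1.49% in AD_ABR and 0.0 and 1.12% in AD.

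Cells were also compared at like shares of Acta2 and Tagln, for 6 genes chosen after their values were seen. Between 3 and 4% of UMIs from Acta2 and Tagln lay 1136 and 712 cells of AD_ABR and 248 and 631 cells of AD. In these cells Myl9 stood at 3761 and 3832 CPM in AD_ABR and 3827 and 3765 CPM in AD, and Csrp1 at 1288 and 1269 CPM in AD_ABR and 1251 and 1257 CPM in AD, so the groups lay close for the light chain and the linker in this bin. At lower shares Csrp1 lay apart, at 879 and 915 CPM in AD_ABR and 598 and 588 CPM in AD between 0.6 and 2%, and at 1109 and 1103 CPM in AD_ABR and 923 and 1015 CPM in AD between 2 and 3%. Between 3 and 4%, Myh11 stood at 3790.2 and 3311 CPM in AD_ABR and 5294 and 4769 CPM in AD, and Smtn at 417 and 378 CPM in AD_ABR and 648 and 515 CPM in AD. Lims2 stood at 231 and 245 CPM in AD_ABR and 159 and 159 CPM in AD, and Myocd at 287 and 216 CPM in AD_ABR and 207 and 191 CPM in AD. At this share Myh11 and Smtn were thus below AD in both AD_ABR libraries and Lims2 and Myocd above it. No test was made, since the share is itself built from genes of the set.

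**Figure D3:**
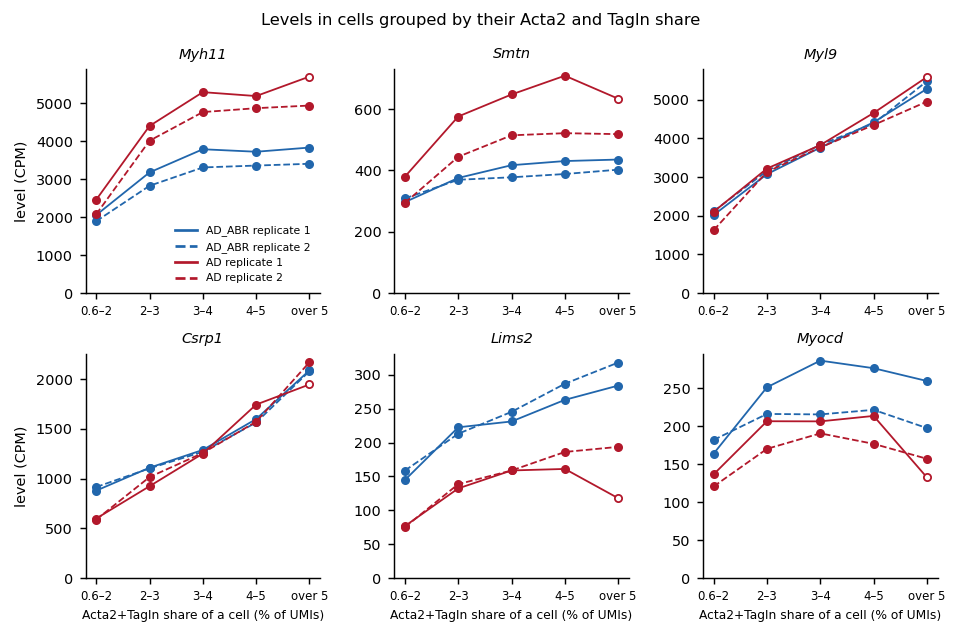
Levels of 6 genes (y axis, CPM) in gated cells grouped by the share of their UMIs from Acta2 and Tagln (x axis, %), with 1 line per library, AD_ABR blue and AD red. Open points hold fewer than 20 cells; between 3 and 4% the lines of Myl9 and Csrp1 meet, whereas those of Myh11, Smtn and Lims2 lie apart by group.

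Across the subtypes, levels are a description, since the gates chose the cells. Des, the desmin gene, was at 738 and 808 CPM in AD_ABR and 492 and 619 CPM in AD in the Tnnt2/Corin subtype, at 94.0 and 97.5 CPM in AD_ABR and 161 and 115 CPM in AD in the contractile subtype, and at 13.4 and 33.4 CPM in AD_ABR and 29.1 and 14.1 CPM in AD in the elastin-dominant subtype. The 3 subtypes did not overlap in any library for Des. Pln had the same order, at 47.9 and 46.0 CPM in AD_ABR and 53.2 and 38.4 CPM in AD in the Tnnt2/Corin subtype, against 14.4 and 13.2 CPM in AD_ABR and 33.7 and 23.4 CPM in AD in the contractile subtype. Elastin-dominant cells held less of most contractile genes: Myh11 was at 1697 and 1984 CPM in AD_ABR and 2110.4 and 1710.1 CPM in AD there, against 3551 and 3194 CPM in AD_ABR and 4388 and 4345 CPM in AD in contractile cells. Itga8 differed less, at 1569 and 1617 CPM in AD_ABR and 1389 and 1085 CPM in AD in elastin-dominant cells and at 1595 and 1569 CPM in AD_ABR and 1450.5 and 1489 CPM in AD in contractile cells.

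**Figure D4:**
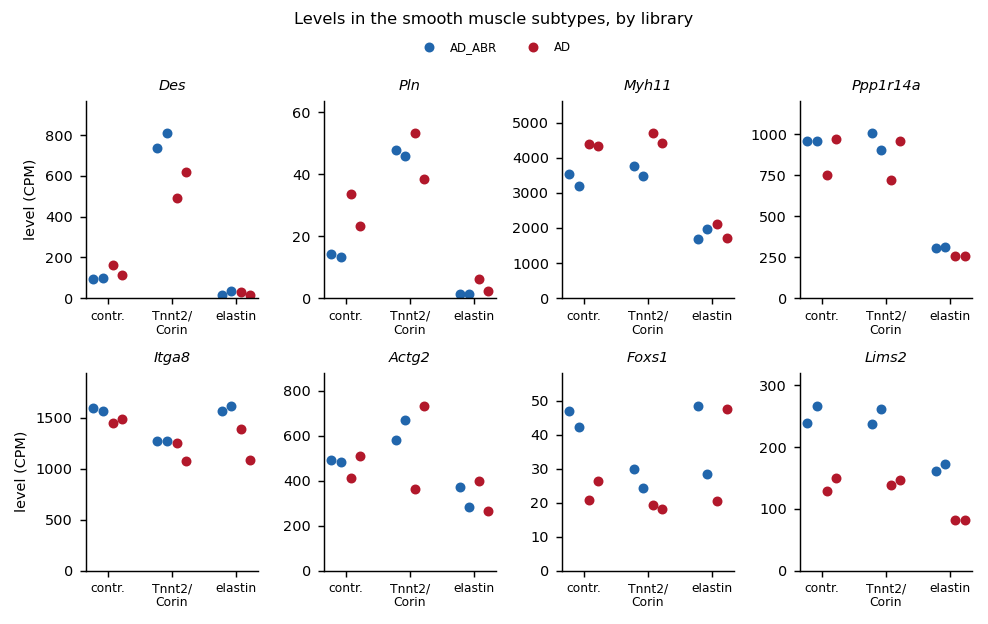
Levels of 8 genes (y axis, CPM, from 0) in the contractile (contr.), Tnnt2/Corin and elastin-dominant (elastin) subtypes, with 1 point per library, AD_ABR blue and left of AD in red. Des is highest in the Tnnt2/Corin subtype, from 492 to 808 CPM, and Lims2 is higher in AD_ABR in each subtype.

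Within the contractile subtype, 8 of the 34 genes rose and 2 fell, against 12.2% of 14607 tested genes called, 5.17% higher and 7.00% lower. Acta2 and Tagln set the gate, and without them 7 of 32 genes rose and 2 fell. Tagln, Csrp1, Lims2, Myoz2, Myocd, Foxs1 and Ramp1 rose again, and so did Mrtfa, at 12.7 and 12.3 CPM in AD_ABR and 9.90 and 8.57 CPM in AD (log2 fold change 0.53 ± 0.16, edgeR adjusted p = 0.0372), a gene with lymphocyte levels near the smooth muscle level. Groups did not overlap for 25 of the 34 genes, and for 60.0% of all tested genes. Acta2 did not pass there (0.43 ± 0.16, edgeR adjusted p = 0.0846). Pln fell by 0.94 ± 0.15 on the log2 scale (edgeR adjusted p = 0.000999), and Des fell by 0.44 ± 0.13 (edgeR adjusted p = 0.04). Of 16 alternatives, Des passed in 8 and Myocd and Mrtfa in 9 each. DESeq2 did not call Des (adjusted p = 0.0672) or Mrtfa (0.16). The Pln call was lost without 1 small cluster, described below. Myh11 (3551 and 3194 CPM in AD_ABR, 4388 and 4345 CPM in AD) and Smtn (407 and 380.1 CPM in AD_ABR, 573 and 486 CPM in AD) did not pass, with log2 fold changes of -0.30 ± 0.13 (edgeR adjusted p = 0.133) and -0.35 ± 0.11 (edgeR adjusted p = 0.0576). Without single libraries the calls of Tagln, Csrp1, Myocd, Mrtfa, Des and Ramp1 were lost in at least 1 case, and those of Lims2, Myoz2, Foxs1 and Pln were not.

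Within the Tnnt2/Corin subtype, 4 of the 34 genes rose and 0 fell, against 4.71% of 9838 tested genes called, 1.82% higher and 2.89% lower. Groups did not overlap for 22 of the 34 genes, and for 51.0% of all tested genes. Lims2 stood at 237 and 262 CPM in AD_ABR and 138 and 147 CPM in AD (log2 fold change 0.84 ± 0.15, edgeR adjusted p = 0.00126). Myoz2 stood at 115 and 160.4 CPM in AD_ABR and 39.9 and 74.3 CPM in AD (1.26 ± 0.29, edgeR adjusted p = 0.0458), Myocd at 250.2 and 227 CPM in AD_ABR and 167 and 161 CPM in AD (0.58 ± 0.15, edgeR adjusted p = 0.0206), and Ramp1 at 566 and 653 CPM in AD_ABR and 390.5 and 419 CPM in AD (0.63 ± 0.16, edgeR adjusted p = 0.0183). Des did not pass (0.51 ± 0.16, edgeR adjusted p = 0.0686), and Acta2 and Tagln had log2 fold changes of 0.44 and 0.49. Myocd and Ramp1 did not pass without AD_ABR replicate 1 (edgeR adjusted p = 0.276 and 0.109) or AD_ABR replicate 2 (0.123 and 0.402).

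Within the elastin-dominant subtype, 33 of the 34 genes were tested, Pln being too low, and 4 rose while 0 fell, against 2.99% of 10045 tested genes called, 1.31% higher and 1.67% lower. Groups did not overlap for 20 of the 34 genes, and for 44.5% of all tested genes. Csrp1 stood at 1052 and 998 CPM in AD_ABR and 620.1 and 622 CPM in AD (log2 fold change 0.70 ± 0.14, edgeR adjusted p = 0.00635). Lims2 stood at 162 and 172 CPM in AD_ABR and 82.5 and 82.1 CPM in AD (0.99 ± 0.15, edgeR adjusted p = 0.000803), Myoz2 at 78.2 and 58.5 CPM in AD_ABR and 29.1 and 36.9 CPM in AD (1.00 ± 0.20, edgeR adjusted p = 0.00969), and Ramp1 at 442 and 492 CPM in AD_ABR and 292 and 295 CPM in AD (0.65 ± 0.14, edgeR adjusted p = 0.011). Lims2, Myoz2 and Ramp1 thus passed the edgeR test in each of the 3 subtypes, which come from the same libraries and are not independent. DESeq2 did not call Myoz2 in the Tnnt2/Corin (adjusted p = 0.185) or the elastin-dominant subtype (0.207). Its edgeR call was also lost in Tnnt2/Corin cells without doublet removal (adjusted p = 0.0781). In elastin-dominant cells it was lost with replicate number as a block (edgeR adjusted p = 0.0569) or at an Acta2 and Tagln threshold of 1.2% (0.141). A chondrocyte-like cluster gave 99 of the elastin-dominant cells. Leaving out the chondrocyte-like clusters and a cluster led by Malat1 removed more of this subtype in AD. It kept 214 of 226 and 184 of 190 cells in AD_ABR, and 112 of 134 and 228 of 307 in AD. Myoz2 then no longer passed in the edgeR test of this subtype (adjusted p = 0.081). Csrp1 and Ramp1 did not pass without AD_ABR replicate 1 (edgeR adjusted p = 0.205 and 0.109) or AD_ABR replicate 2 (0.126 and 0.331), nor Myoz2 without AD_ABR replicate 1 (0.189).

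**Figure D5:**
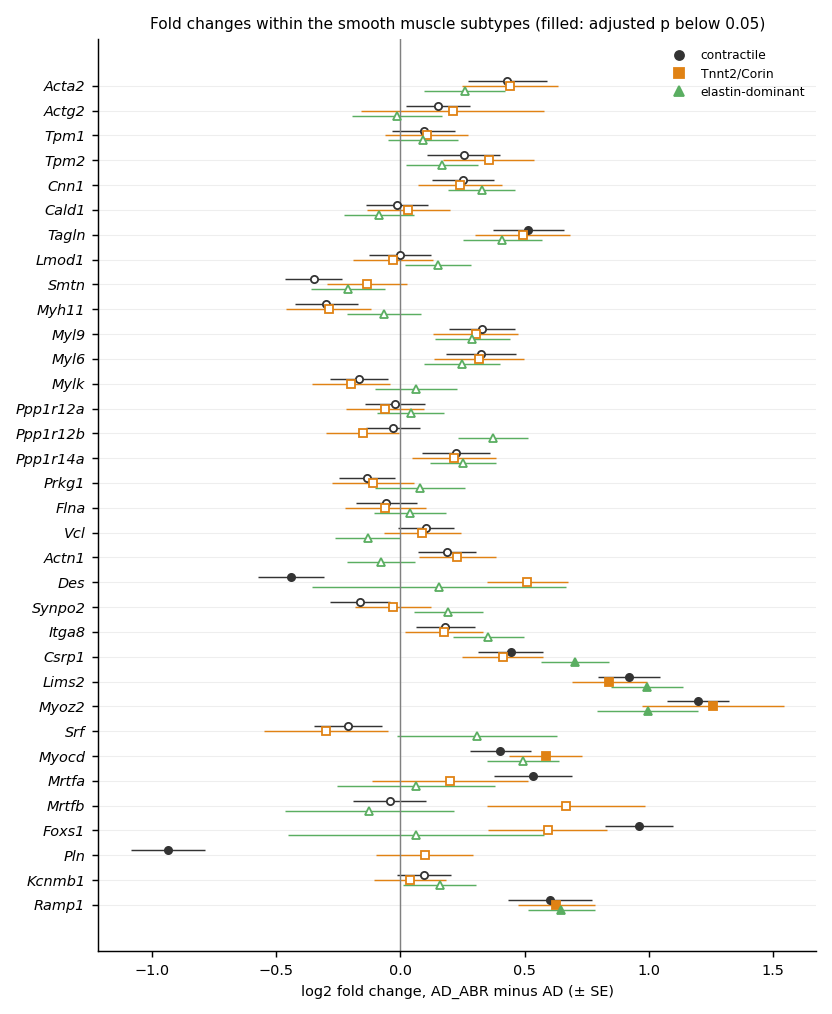
Log2 fold change of the 34 genes, AD_ABR minus AD (x axis; bars, SE), in the contractile (circles), Tnnt2/Corin (squares) and elastin-dominant (triangles) subtypes; filled symbols passed the edgeR test. Lims2, Myoz2 and Ramp1 are filled and positive in each subtype, and Pln, not tested in the elastin-dominant subtype, is filled in the contractile subtype alone.

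The difference of the AD_ABR effect between subtypes was tested directly. Between the Tnnt2/Corin and the contractile subtype 1 of the 34 genes passed, Pln (difference of log2 fold changes 1.07 ± 0.19, edgeR adjusted p = 0.00836), against 0.0820% of 12191 genes. Between the elastin-dominant and the contractile subtype 0 of 34 genes passed the edgeR test, against 0.0801% of 12482 genes, with differences of -0.88 for Foxs1 to 0.58 for Des. At an unadjusted p below 0.05 in the edgeR test were 5 of the 34 genes, against 7.72% of all genes. The differences for Lims2 were -0.05 (normal 95% interval -0.26 to 0.17) in the Tnnt2/Corin and 0.10 (-0.18 to 0.39) in the elastin-dominant subtype. Those for Ramp1 were 0.05 (-0.16 to 0.25) and 0.06 (-0.22 to 0.33). These intervals take the error as normal and are narrower than the edgeR test implies. Des, with fold changes of opposite sign in the Tnnt2/Corin and contractile subtypes, gave a difference of 0.96 ± 0.34 that did not pass (edgeR adjusted p = 0.869).

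Part of the Pln UMIs came from few cells. A cluster led by Pln, Notch3 and Nrip2, singled out after its values were seen, held 14 and 12 gated cells in AD_ABR (0.369 and 0.402%) and 10 and 33 in AD (1.01 and 1.49%). It supplied 7.91 and 6.32% of the Pln UMIs of gated cells in AD_ABR and 15.6 and 34.5% in AD, at 432 to 629 CPM. Without it the calls were lost. The log2 fold change of Pln was -0.42 in all gated cells (edgeR adjusted p = 0.336) and -0.58 in the contractile subtype (edgeR adjusted p = 0.229). The difference between the Tnnt2/Corin and contractile subtypes was 0.83 (edgeR adjusted p = 0.241). In gated cells outside both this cluster and the Tnnt2/Corin subtype, Pln stood at 12.3 and 11.5 CPM in AD_ABR and 24.0 and 11.9 CPM in AD. There AD replicate 2 lay between the AD_ABR libraries, and only AD replicate 1 lay apart.

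The mix of the 2 largest smooth muscle clusters differed between libraries, so the genes were also tested within each. Cluster 0, led by Tnnt2, Igfbp2 and Des, held 1601 and 1813 gated cells in AD_ABR and 414 and 984 in AD. Cluster 1, led by Abra, Xirp1, Ptprz1 and Npnt, held 1726 and 847 in AD_ABR and 425 and 821 in AD. Within cluster 0, 8 of the 34 genes rose and 0 fell, all 8 among the 9 called in all gated cells, against 12.8% of 13416 tested genes called, 5.99% higher and 6.82% lower. Within cluster 1, 5 rose and 2 fell, Des and Smtn, with log2 fold changes of -0.56 and -0.45 (edgeR adjusted p = 0.00824 and 0.0134 for Des and Smtn), against 10.1% of 12643 tested genes called, 4.41% higher and 5.73% lower. Lims2, Myoz2, Myocd, Foxs1 and Ramp1 rose in both clusters. The 8 genes of cluster 0 include Acta2 and Tagln, which set the gate.

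Other genes of the pathway were read from a fixed list. Of 17 non-muscle counterparts 5 rose and 2 fell in all gated cells (median log2 fold change 0.08), where 6.79% of all tested genes rose and 9.16% fell. In the contractile subtype 3 rose and 0 fell, where 5.17% of all tested genes rose and 7.00% fell. In the Tnnt2/Corin subtype 0 rose and 0 fell, where 1.82% of all tested genes rose and 2.89% fell. In the elastin-dominant subtype 2 rose and 2 fell, where 1.31% of all tested genes rose and 1.67% fell. The non-muscle regulatory light chains Myl12a (588 and 643 CPM in AD_ABR, 394 and 478 CPM in AD; 0.58 ± 0.13, edgeR adjusted p = 0.00911) and Myl12b (29.4 and 29.98 CPM in AD_ABR, 18.1 and 22.6 CPM in AD; 0.60 ± 0.13) rose, and so did the calponin Cnn3 (424 and 386 CPM in AD_ABR, 267 and 273 CPM in AD; 0.67 ± 0.11), the focal adhesion gene Zyx (0.35 ± 0.11) and the intermediate filament gene Vim (0.52 ± 0.14). The non-muscle myosin heavy chain Myh9 (113 and 90.6 CPM in AD_ABR, 179.9 and 147 CPM in AD; -0.60 ± 0.12, edgeR adjusted p = 0.00544) and the cytoplasmic actin Actg1 (-0.38 ± 0.12) fell. In the contractile subtype Myh9 did not pass (-0.43 ± 0.14, edgeR adjusted p = 0.0576).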

How the data were processed

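Matrices of UMI counts per gene and barcode were deposited for each library without normalization, per the file headers. The submitters' processing notes name STAR, Cell Ranger 6.0, Seurat 4.0 and GRCm38, but the deposited matrices carry version 7.1.0 of Cell Ranger in their header; the annotation used for counting was not given in the sources used here. Total counts were 93575612 and 98946431 UMIs in AD_ABR and 76142840 and 99572011 in AD. Barcodes with at least 200 genes and under 20% mitochondrial UMIs were kept. Doublets were removed by Scrublet score (scanpy 1.11.5) at 0.8% per 1000 barcodes; the caller's own threshold marked 2.70 and 4.62% of barcodes in AD_ABR and 0.0101 and 2.53% in AD, so it did not work in AD replicate 1. This left 8451 and 9872 cells in AD_ABR and 9154 and 9782 in AD. Libraries shared 22 to 38 barcodes per pair, at most 0.347%. Of the cells past the share threshold 7.33% were removed for UMIs of other lineages, and 419 cells lay within a factor of 1.25 of the Acta2 and Tagln threshold. Clusters were made by Leiden partition (leidenalg 0.10.2) without the 34 genes and named -like from fixed markers.

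Counts were summed per library and gate, as cells are not replicates, and tested in R 4.3.3 with edgeR 4.0.16 (TMM, filterByExpr, robust quasi-likelihood F test), AD_ABR minus AD, with Benjamini-Hochberg adjustment over all genes tested at 0.05. The difference between subtypes was an interaction term with library as a block. DESeq2 1.42.0 was an alternative. The steps were tested on simulated data. The replicates differed beyond sampling noise (chi-square per degree of freedom 13.9 in AD_ABR and 14.5 in AD). The genes and lists were chosen with earlier results of these data known. A gene is given in every library where it passed in any gate or is Acta2, Tagln, Myh11, Cnn1 or Myocd; some others are given in full to show their role. Intervals take the fitted error as normal, so they are narrower than the quasi-likelihood F test implies, and they cover that error only. Reads from 3′ ends do not separate overlapping genes, and levels are not per length, so they are not compared between genes. The result of 1 further list of signalling genes is not reported here.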

Additional observations from a re-analysis of the deposited data

Results flagged for a closer look

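The AD_ABR effect on Pln differed between subtypes: the difference of log2 fold changes, Tnnt2/Corin minus contractile, was 1.07 (edgeR adjusted p = 0.00836), from 0.10 in the Tnnt2/Corin and -0.94 in the contractile subtype. It was singled out because the difference itself passed the test over all genes. Without the cluster led by Pln and Notch3 it was 0.83 (edgeR adjusted p = 0.241), and without AD_ABR replicate 1 or 2 it did not pass (edgeR adjusted p = 1.0 each). The source of the difference was not tested further.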

How the results depend on the processing

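Across the alternatives, no called gene changed direction. The number of the 34 genes past the test was 6 to 17 in all gated cells (9 with all libraries), 5 to 16 in the contractile (10), 2 to 13 in the Tnnt2/Corin (4) and 1 to 10 in the elastin-dominant subtype (4) when single libraries were left out. The largest counts came without AD replicate 2 (17, 16 and 13) or, in the elastin-dominant subtype, without AD replicate 1 (10). For the difference between subtypes, the counts without single libraries were 0 to 3 (Tnnt2/Corin, 1 with all) and 0 to 2 (elastin-dominant, 0 with all). The cause of these shifts was not tested. Apart from clusters 0 and 1, the share of all tested genes called under each alternative is not given here. The counts in this section are thus a description of the settings and not a result about the 34 genes. An Acta2 and Tagln threshold of 0.3% gave 15 genes in all gated cells, and a Tnnt2 and Corin threshold of 6 UMIs per 10000 gave 2 in that subtype. The labels tie equal replicate numbers to no shared animal, batch or day, and 2 pairs do not decide whether the numbers pair the libraries; same-numbered deviations correlated by 0.24 in all gated cells and by 0.29, 0.15 and 0.094 in the contractile, Tnnt2/Corin and elastin-dominant subtypes. The replicate block gave 17, 14, 6 and 3 genes in that order of gates. DESeq2 gave 12, 10, 3 and 3, and median-ratio scaling 9, 10, 4 and 4. Chosen after seeing the data were leaving out the chondrocyte-like and Malat1-led clusters (9, 10, 4 and 3), the 2 largest clusters alone (10), cluster 0 (8) or cluster 1 (7), and leaving out the cluster led by Pln and Notch3 (9 in all gated cells, 6 in the contractile subtype and 0 for the difference).

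With 2 libraries a group, calls rest on spread shared across genes by edgeR, and an exact permutation test of a single value cannot reach below 0.333. Depth limits the genes with few UMIs, such as Pln, with 657 and 427 UMIs over all gated cells in AD_ABR and 289 and 397 in AD.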
